A study of Homo sapiens with 31 samples.

Results

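The 54 genes described here are markers and regulators of the epithelial and the mesenchymal cell state, 27 of each. They were taken from a list of such genes, and each was read from the probe set annotated to its symbol alone. Only ZEB2 had more than 1 such probe set, and its brighter one on average was used. All 54 were measured, among 17314 genes with a named probe set. Of the 54, 6 lay among the dimmest 30% of all genes, below a mean log2 level of 6.01. These were RAB25, GRHL2, OVOL1, ST14, SNAI1 and TAGLN.

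The genes were measured in xenografts of PC3, an established human prostate carcinoma line, on 31 arrays in 8 groups. The lines were unpassaged PC3 (wt) and the clones A3, D3 and D4, which had been isolated again after growth in animals, so each clone stands for 1 isolate and its passage in animals cannot be told apart from its clonal origin. The submitters call wt and A3 sensitive to cyclophosphamide (CPA), a DNA-crosslinking prodrug that the liver activates, and D3 and D4 resistant to it. All lines were implanted, and when tumours averaged 30 mm3 some animals of each line were given CPA at 120 mg/kg into the peritoneum and the others were left as controls. There were 3 arrays for untreated A3 and 4 for every other group. Levels are log2 values, so a difference of 1 is a doubling. Whether the arrays of a group came from separate animals is not stated, so p-values speak only for the spread among these samples, which may be partly technical. In tumour RNA, fewer cells that express a gene and less of its RNA per cell cannot be told apart.

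Epithelial cells are tied to their neighbours by E-cadherin junctions, tight junctions and desmosomes, and carry keratin filaments inside. In an epithelial-to-mesenchymal transition, factors of the ZEB, SNAI and TWIST families repress these genes, and cells gain N-cadherin, vimentin and a matrix rich in fibronectin, often under TGF-beta signalling. Carcinoma cells can hold genes of both states at once, and PC3 is known for strong keratin and vimentin expression and for the loss of alpha-catenin, the protein that links cadherins to actin.

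High RNA of genes of both states was read in every group. Tumour RNA cannot show whether the same cells held both. KRT18, a keratin of simple epithelia, averaged 9.98 ± 0.04 (SD, n = 4) in untreated wt, and VIM, the vimentin gene, 11.17 ± 0.11. By array, untreated KRT18 read 10.01, 9.95, 10.02 and 9.95 on the wt arrays, 10.06, 9.89 and 10.10 on the A3 arrays, 10.03, 10.07, 10.06 and 9.97 on the D3 arrays and 10.10, 9.95, 10.11 and 9.85 on the D4 arrays. These KRT18 values overlapped between all lines. Untreated VIM read 11.21, 11.28, 11.02 and 11.17 on the wt arrays, 11.36, 11.25 and 11.37 on the A3 arrays, 11.38, 11.41, 11.35 and 11.32 on the D3 arrays and 11.30, 11.36, 11.49 and 11.33 on the D4 arrays. All but 1 of the clone arrays, A3 replicate 2, lay above the highest wt array, but the difference was not called, with 0.20 ± 0.08 (SE, adjusted p = 0.0917) in D3. The prostate markers KLK3 and KLK2, targets of the androgen receptor, had group means of 5.86 to 5.98 and 5.76 to 5.99, at the level of the dimmest 30% of genes, while HOXB13, a homeobox factor of the prostate lineage, lay at 10.36 to 10.81. CTNNA1, the alpha-catenin gene, had group means of 5.80 to 6.31.

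The first question was how the clones differ from the unpassaged line. Genes were called at an adjusted p under 0.05 in limma, with Benjamini-Hochberg adjustment over all 17314 genes. In untreated tumours of all 3 clones, CDH1 (E-cadherin) and ELF3 (an epithelial transcription factor) were lower than in wt, as were the matrix genes SPARC and FN1 (fibronectin). CDH2 (N-cadherin), TNC (tenascin C), CCN1 (a matrix-bound signalling protein) and AXL (a receptor tyrosine kinase) were higher. The same 8 genes were called in the same direction in all 3 clones under CPA, on other arrays. SPARC, CDH2 and TNC kept these calls under every alternative run. CCN1 lost its call in 9 of 16 alternatives in untreated A3 and in 6 of 17 in treated A3. ELF3 lost its call in 3 of 16 alternatives in untreated A3, 3 of 17 in D3 and 2 of 17 in D4. Under CPA the ELF3 call was lost in 6, 7 and 5 of 17 in A3, D3 and D4. FN1 lost its call in 8 of 17 in treated D3 and 2 of 17 in untreated D3. CDH1 lost its call in 2 of 17 in treated D3, and AXL in 1 of 17 in treated D4. Of the members, 17 of 27 epithelial and 13 of 27 mesenchymal genes were called in no untreated clone. Neither the share of all genes called in no clone nor that called in all 3 clones was counted. So these counts and the 8 shared calls do not set the members apart. The 3 clones were all set against the same 4 wt arrays.

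In A3, 2 epithelial members were higher and 7 lower, 25.9% of the 27 lower where 8.36% of all genes were lower and 10.1% higher. Of the mesenchymal members 5 were higher and 3 lower. In D3, 1 epithelial member was higher and 3 lower, and 5 mesenchymal members were higher and 3 lower, against 9.69% of all genes higher and 8.40% lower. In D4, 2 epithelial members were higher and 3 lower, against 9.22% and 10.9% of all genes. Of its mesenchymal members 9 were higher, 33.3% of the 27, and 3 were lower. The medians of both lists lay near that of all genes. The median log2 difference of epithelial members was 0.03 in A3, 0.009 in D3 and 0.02 in D4, that of mesenchymal members 0.05, 0.03 and 0.05, and that of all genes 0.04, 0.015 and 0.05. Without single arrays, the members called ranged from 12 to 15 in A3, where all arrays gave 17, from 9 to 13 in D3 and from 14 to 18 in D4. Fitting just the A3 and wt arrays, 11 members were called in A3, and of all genes 1882 in place of 3200.

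**Figure D1:**
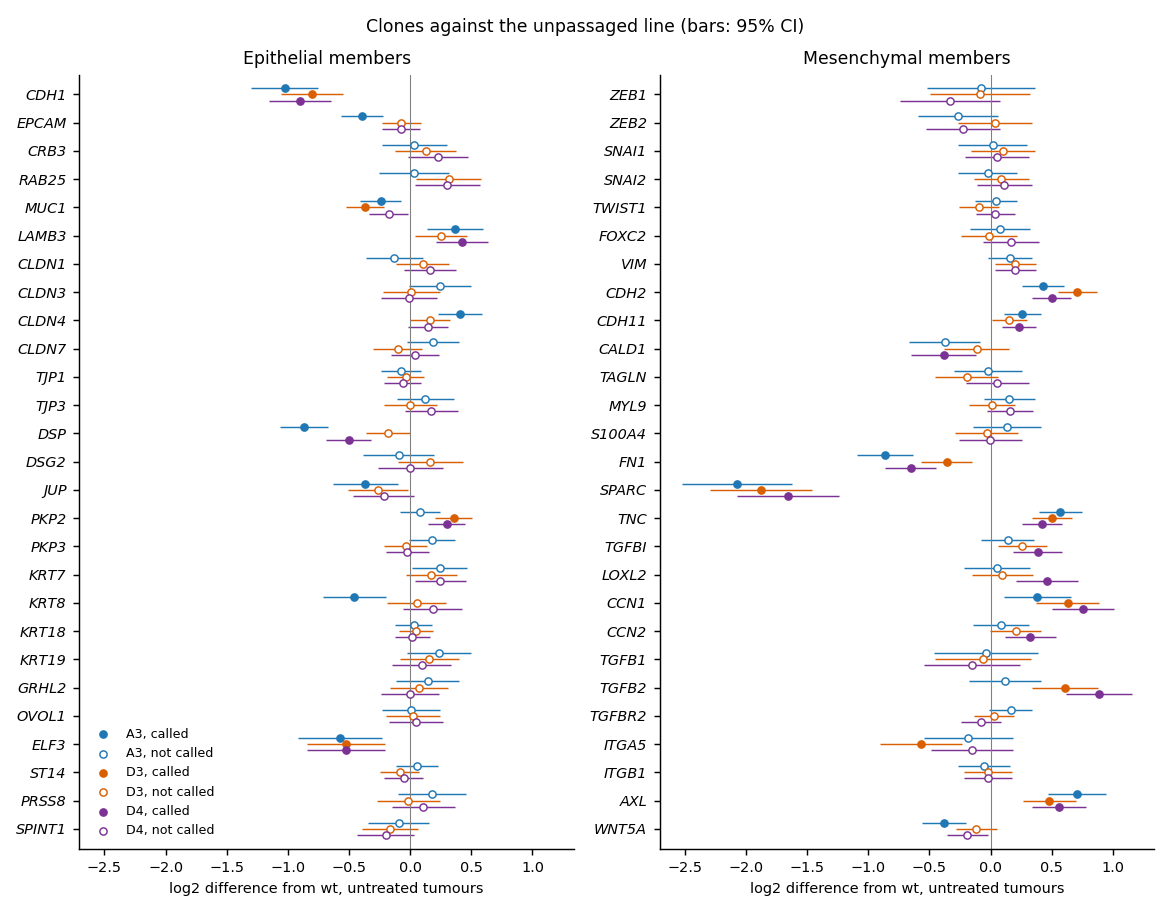
Log2 difference of each clone from wt in untreated tumours (horizontal axis) for the 27 epithelial members (left) and the 27 mesenchymal members (right), with 95% confidence intervals from the limma fit and filled points for called members. CDH1, ELF3, SPARC and FN1 lie left of 0 and CDH2, TNC, CCN1 and AXL right of 0 in all 3 clones, while most other intervals reach across or close to 0.

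Among the genes of adhesion and polarity, CDH1 encodes the cadherin of the epithelial adherens junction. In untreated tumours CDH1 read 7.29, 7.01, 7.07 and 6.69 on the wt arrays, 6.03, 5.91 and 6.03 on the A3 arrays, 6.16, 6.13, 6.43 and 6.12 on the D3 arrays and 6.16, 5.98, 6.45 and 5.85 on the D4 arrays. Every clone array lay below the lowest wt array. CDH1 differed from wt by -1.03 ± 0.13 (SE, adjusted p = 1.83e-06) in A3, 2.04-fold lower, by -0.80 ± 0.12 (SE, adjusted p = 2.25e-05) in D3, 1.75-fold lower, and by -0.90 ± 0.12 (SE, adjusted p = 3.47e-06) in D4, 1.87-fold lower. Under CPA it read 6.66, 6.56, 6.94 and 6.59 on the wt arrays, 5.98, 5.75, 5.89 and 6.14 on the A3 arrays, 6.20, 6.31, 6.34 and 6.26 on the D3 arrays and 5.86, 5.79, 6.16 and 5.60 on the D4 arrays. Again no clone array reached the wt range, and the differences were -0.75 ± 0.12 (SE, adjusted p = 6.49e-05) in A3, -0.41 ± 0.12 (SE, adjusted p = 0.0217) in D3 and -0.84 ± 0.12 (SE, adjusted p = 1.54e-05) in D4. The treated D3 difference lost its call without wt replicate 3 (adjusted p = 0.106) or without D3 replicate 2 (adjusted p = 0.0555).

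EPCAM, a surface adhesion molecule of epithelia, read 8.56, 8.66, 8.96 and 8.65 on the wt arrays, 8.42, 8.22 and 8.31 on the A3 arrays, 8.57, 8.60, 8.77 and 8.61 on the D3 arrays and 8.62, 8.70, 8.64 and 8.58 on the D4 arrays in untreated tumours. The 3 A3 arrays lay below all others, -0.39 ± 0.08 (SE, adjusted p = 0.000975) from wt, 1.31-fold lower. In a fit of only A3 and wt, the adjusted p for EPCAM was 0.0503. MUC1, a membrane mucin of the apical surface, read 6.70, 6.54, 6.60 and 6.63 on the wt arrays, 6.33, 6.40 and 6.41 on the A3 arrays, 6.28, 6.21, 6.38 and 6.12 on the D3 arrays and 6.46, 6.46, 6.53 and 6.33 on the D4 arrays. It was lower in D3 at -0.37 ± 0.08 (SE, adjusted p = 0.000729), 1.29-fold, and in A3 at -0.24 ± 0.08 (SE, adjusted p = 0.0402), while the D4 difference of -0.18 ± 0.08 (SE, adjusted p = 0.104) was not called. LAMB3, a laminin chain of the epithelial basement membrane, read 8.85, 9.17, 8.75 and 9.05 on the wt arrays, 9.33, 9.28 and 9.34 on the A3 arrays, 9.12, 9.16, 9.25 and 9.28 on the D3 arrays and 9.19, 9.40, 9.62 and 9.29 on the D4 arrays. It was higher than wt in A3, by 0.36 ± 0.11 (SE, adjusted p = 0.0211), and in D4, by 0.42 ± 0.10 (SE, adjusted p = 0.00379), 1.34-fold, with no overlap with wt in either. The LAMB3 call in A3 was lost in 5 of 16 alternatives, and that in D4 was kept in all 17. Under CPA, LAMB3 was called in no clone, and MUC1 in D3 and D4 but not in A3. The polarity genes CRB3 and RAB25 were called in no clone.

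Of the 6 tight junction members only CLDN4, a claudin that seals the space between cells, was called in an untreated clone. CLDN4 read 8.71, 8.91, 8.60 and 8.78 on the wt arrays, 9.26, 9.07 and 9.14 on the A3 arrays, 8.76, 8.93, 8.97 and 8.99 on the D3 arrays and 8.79, 8.91, 9.05 and 8.82 on the D4 arrays. The A3 arrays lay above all wt arrays, by 0.41 ± 0.09 (SE, adjusted p = 0.00111), 1.33-fold, and the D3 and D4 ranges overlapped that of wt. Under CPA, CLDN4 was called in no clone, with 8.95, 8.95, 8.76 and 8.67 on the A3 arrays and 8.82, 8.69, 8.75 and 8.79 on the wt arrays. CLDN1, CLDN3, CLDN7, TJP1 and TJP3 were not called in untreated clones. TJP1, which encodes the scaffold ZO-1, averaged 9.64 ± 0.04 in wt, 9.60 ± 0.05 in D3 and 9.58 ± 0.17 in D4 (SD, n = 4 each).

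Desmosome genes moved in both directions. DSP encodes desmoplakin, which ties keratin filaments to desmosomes. Untreated DSP read 8.65, 8.67, 8.74 and 8.71 on the wt arrays, 7.90, 7.86 and 7.70 on the A3 arrays, 8.66, 8.51, 8.43 and 8.43 on the D3 arrays and 8.06, 8.34, 8.18 and 8.17 on the D4 arrays. A3 and D4 lay below every wt array and did not overlap each other, while D3 reached the wt range. The differences from wt were -0.87 ± 0.10 (SE, adjusted p = 1.66e-07) in A3, 1.83-fold lower, -0.50 ± 0.09 (SE, adjusted p = 0.000119) in D4, 1.42-fold lower, and -0.18 ± 0.09 (SE, adjusted p = 0.177) in D3. PKP2, a plakophilin of the desmosomal plaque, was higher in D3 by 0.35 ± 0.07 (SE, adjusted p = 0.000849), 1.28-fold, and in D4 by 0.30 ± 0.07 (SE, adjusted p = 0.00376), 1.23-fold. The PKP2 call in D4 was lost in a fit of only D4 and wt (adjusted p = 0.0822). Under CPA, PKP2 was not called in D3, and its call in D4 was lost in 8 of 17 alternatives. JUP, plakoglobin, was lower in A3 at -0.37 ± 0.13 (SE, adjusted p = 0.0475). That call was lost in 7 of 16 alternatives, and the one for MUC1 in A3 in 9 of 16. DSG2 and PKP3 were not called.

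Of the 4 keratins, KRT8, the partner of KRT18 in simple epithelia, was the 1 called. KRT8 read 10.21, 9.79, 9.99 and 9.80 on the wt arrays, 9.49, 9.57 and 9.41 on the A3 arrays, 9.97, 10.06, 10.14 and 9.83 on the D3 arrays and 10.16, 10.13, 10.38 and 9.86 on the D4 arrays. The A3 arrays lay below all others, -0.46 ± 0.13 (SE, adjusted p = 0.00999) from wt, and D3 and D4 overlapped the wt range. KRT19 averaged 10.37 ± 0.13 in wt and 10.60 ± 0.11 (SD, n = 3) in A3, and neither KRT19 nor KRT7 was called.

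Among the epithelial transcription factors, ELF3 belongs to the ETS family. Untreated ELF3 read 6.76, 6.90, 6.54 and 6.57 on the wt arrays, 6.003, 6.36 and 5.996 on the A3 arrays, 6.52, 5.96, 6.30 and 5.91 on the D3 arrays and 6.47, 6.07, 6.22 and 5.90 on the D4 arrays. All clone arrays lay below the lowest wt array, the highest of them, of D3, by a narrow margin. ELF3 differed from wt by -0.57 ± 0.17 (SE, adjusted p = 0.015) in A3, -0.52 ± 0.16 (SE, adjusted p = 0.0166) in D3, 1.44-fold lower, and -0.53 ± 0.16 (SE, adjusted p = 0.0147) in D4. The call in D3 was lost without wt replicate 2 (adjusted p = 0.0656), D3 replicate 2 (0.0670) or D3 replicate 5 (0.0785). Under CPA, A3 replicate 1 read 6.65, inside the wt range. GRHL2 and OVOL1, factors that hold the epithelial state, were dim in every group, GRHL2 at 4.84 ± 0.27 in wt, and were not called. The protease ST14 (matriptase), its partner PRSS8 and its inhibitor SPINT1 were not called in untreated clones either.

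On the mesenchymal side, none of the 6 transcription factors ZEB1, ZEB2, SNAI1, SNAI2, TWIST1 and FOXC2 was called in any clone. ZEB1 is a zinc-finger repressor of CDH1. ZEB1 read 7.45, 7.82, 7.58 and 7.58 on the wt arrays, 7.80, 7.18 and 7.60 on the A3 arrays, 7.46, 7.75, 7.15 and 7.71 on the D3 arrays and 7.55, 7.74, 6.26 and 7.55 on the D4 arrays. D4 replicate 4 lay more than 1 log2 unit below the other D4 arrays, and all other arrays overlapped across lines. The D4 difference was -0.33 ± 0.20 (SE, adjusted p = 0.253), and 0.01 ± 0.14 (SE, adjusted p = 0.976) without that array. The 95% confidence intervals ran from -0.52 to 0.36 for A3 and from -0.74 to 0.08 for D4.

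ZEB2, the paralogue of ZEB1, read 6.24, 6.49, 5.93 and 6.68 on the wt arrays, 6.04, 6.29 and 5.88 on the A3 arrays, 6.40, 6.55, 6.18 and 6.35 on the D3 arrays and 6.08, 6.09, 5.88 and 6.37 on the D4 arrays. Its ranges overlapped between all lines. SNAI2 (Slug), another E-box repressor, read 8.79, 9.32, 8.71 and 9.20 on the wt arrays, 9.23, 8.92 and 8.78 on the A3 arrays, 9.01, 9.11, 9.07 and 9.16 on the D3 arrays and 8.999, 9.23, 9.13 and 9.10 on the D4 arrays. Its intervals against wt ran from -0.27 to 0.22 in A3, -0.14 to 0.31 in D3 and -0.11 to 0.34 in D4. TWIST1, a bHLH factor, averaged 8.46 ± 0.10 for wt, 8.50 ± 0.15 for A3 (n = 3), 8.37 ± 0.09 for D3 and 8.50 ± 0.10 for D4 (SD, n = 4), and SNAI1 was dim, at 5.51 ± 0.15 in wt.

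CDH2 rose in all 3 clones, and CDH11 in A3 and D4. CDH2 encodes the N-cadherin of mesenchymal and neural cells. Untreated CDH2 read 8.68, 8.86, 8.75 and 8.89 on the wt arrays, 9.28, 9.24 and 9.16 on the A3 arrays, 9.47, 9.54, 9.46 and 9.54 on the D3 arrays and 9.04, 9.43, 9.30 and 9.41 on the D4 arrays. Every clone array lay above every wt array. CDH2 exceeded wt by 0.43 ± 0.08 (SE, adjusted p = 0.000463) in A3, 1.35-fold, by 0.71 ± 0.08 (SE, adjusted p = 1.68e-07) in D3, 1.63-fold, and by 0.50 ± 0.08 (SE, adjusted p = 2.54e-05) in D4, 1.41-fold. CDH11, a cadherin of mesenchymal cells, was higher in A3, by 0.26 ± 0.07 (SE, adjusted p = 0.0121), and in D4, by 0.23 ± 0.07 (SE, adjusted p = 0.014). CALD1, caldesmon of the actin cytoskeleton, was lower in D4 at -0.38 ± 0.13 (SE, adjusted p = 0.0362). VIM, TAGLN, MYL9 and S100A4 were not called. The CALD1 call was lost in 10 of 17 alternatives.

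SPARC showed the largest difference of the 54. It encodes a collagen-binding glycoprotein of the matrix. In untreated tumours SPARC read 11.40, 11.05, 11.45 and 10.66 on the wt arrays, 8.90, 8.89 and 9.41 on the A3 arrays, 9.49, 8.95, 9.59 and 9.02 on the D3 arrays and 9.70, 9.28, 9.85 and 9.11 on the D4 arrays. Every clone array lay well below the lowest wt array. SPARC was 4.21-fold lower in A3, -2.07 ± 0.22 (SE, adjusted p = 8.57e-08), 3.67-fold lower in D3, -1.88 ± 0.20 (SE, adjusted p = 1.22e-07), and 3.15-fold lower in D4, -1.66 ± 0.20 (SE, adjusted p = 5.67e-07). Under CPA the SPARC levels were 10.41, 10.76, 11.27 and 11.07 on the wt arrays, 9.08, 8.76, 9.23 and 9.34 on the A3 arrays, 9.03, 9.13, 9.44 and 9.07 on the D3 arrays and 9.26, 9.12, 9.68 and 8.84 on the D4 arrays. The groups stayed apart, with differences of -1.78, -1.71 and -1.65 for A3, D3 and D4.

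FN1 encodes fibronectin. Untreated FN1 read 11.18, 11.51, 11.20 and 11.35 on the wt arrays, 10.39, 10.40 and 10.56 on the A3 arrays, 11.01, 10.81, 11.09 and 10.91 on the D3 arrays and 10.47, 10.63, 10.95 and 10.58 on the D4 arrays. All clone arrays lay below all wt arrays. D3 was nearest to wt, -0.36 ± 0.10 (SE, adjusted p = 0.0128), 1.28-fold lower, and A3 farthest, -0.86 ± 0.11 (SE, adjusted p = 1.41e-06), 1.82-fold lower, with D4 between them at -0.65 ± 0.10 (SE, adjusted p = 2.43e-05), 1.57-fold lower.

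Other matrix members went up. TNC, an adhesion-modulating glycoprotein of stroma and wounds, read 9.89, 9.93, 9.83 and 10.06 on the wt arrays, 10.45, 10.55 and 10.49 on the A3 arrays, 10.42, 10.46, 10.42 and 10.42 on the D3 arrays and 10.06, 10.41, 10.51 and 10.40 on the D4 arrays. D4 replicate 1 lay level with the highest wt array and all other clone arrays lay above wt. TNC exceeded wt by 0.57 ± 0.09 (SE, adjusted p = 1.43e-05) in A3, 1.48-fold, 0.50 ± 0.08 (SE, adjusted p = 3.03e-05) in D3, 1.42-fold, and 0.42 ± 0.08 (SE, adjusted p = 0.000248) in D4, 1.34-fold. CCN1 (CYR61) read 7.55, 7.96, 7.61 and 7.69 on the wt arrays, 8.07, 8.15 and 8.03 on the A3 arrays, 8.14, 8.45, 8.28 and 8.46 on the D3 arrays and 8.18, 8.59, 8.72 and 8.35 on the D4 arrays. All clone arrays lay above wt, by 0.38 ± 0.13 (SE, adjusted p = 0.0463) in A3, 0.63 ± 0.12 (SE, adjusted p = 0.000486) in D3, 1.55-fold, and 0.76 ± 0.12 (SE, adjusted p = 4.4e-05) in D4, 1.69-fold. In untreated D4 alone, TGFBI, a TGF-beta-induced matrix protein, was called at 0.39 ± 0.10 (SE, adjusted p = 0.00499), LOXL2, a lysyl oxidase that crosslinks collagen, at 0.46 ± 0.12 (SE, adjusted p = 0.00695), and CCN2 (CTGF) at 0.33 ± 0.10 (SE, adjusted p = 0.0228). The CCN2 call was lost in 7 of 17 alternatives, that of TGFBI in 2 and that of LOXL2 in 1. None of these 3 was called between D4 and A3 or between D4 and D3, nor in any clone under CPA. Treated D4 differed from treated wt by 0.04 ± 0.10 (SE, adjusted p = 0.879) for TGFBI, 0.25 ± 0.12 (SE, adjusted p = 0.201) for LOXL2 and 0.05 ± 0.10 (SE, adjusted p = 0.833) for CCN2.

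Of the TGF-beta ligands and receptor, TGFB2 was called in untreated clones and TGFB1 and TGFBR2 were not. TGFB2 is a secreted ligand of the pathway. It read 5.85, 6.08, 5.88 and 6.09 on the wt arrays, 5.95, 6.20 and 6.13 on the A3 arrays, 6.64, 6.89, 6.20 and 6.61 on the D3 arrays and 6.68, 7.08, 6.77 and 6.92 on the D4 arrays. A3 overlapped wt, whereas D3 and D4 lay above all wt arrays. TGFB2 exceeded wt by 0.89 ± 0.13 (SE, adjusted p = 1.01e-05) in D4, 1.85-fold, by 0.61 ± 0.13 (SE, adjusted p = 0.0012) in D3, and by 0.12 ± 0.14 (SE, adjusted p = 0.66) in A3. Under CPA the differences were 0.96 ± 0.13 (SE, adjusted p = 4.63e-06) in D4, 0.55 ± 0.13 (SE, adjusted p = 0.00421) in D3 and -0.09 ± 0.13 (SE, adjusted p = 0.7) in A3.

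Among surface receptors and ligands, AXL, the receptor of GAS6, read 8.94, 8.99, 8.73 and 8.93 on the wt arrays, 9.57, 9.68 and 9.56 on the A3 arrays, 9.37, 9.36, 9.44 and 9.33 on the D3 arrays and 9.27, 9.44, 9.70 and 9.41 on the D4 arrays. Every clone array lay above every wt array, by 0.71 ± 0.12 (SE, adjusted p = 4.67e-05) in A3, 1.63-fold, 0.48 ± 0.11 (SE, adjusted p = 0.00168) in D3 and 0.56 ± 0.11 (SE, adjusted p = 0.000275) in D4. ITGA5, the fibronectin-binding integrin chain, read 8.82, 9.19, 8.35 and 8.71 on the wt arrays, 8.55, 8.50 and 8.70 on the A3 arrays, 8.57, 7.94, 8.26 and 8.02 on the D3 arrays and 8.42, 8.75, 8.91 and 8.37 on the D4 arrays. D3 was lower at -0.57 ± 0.17 (SE, adjusted p = 0.0142), although D3 replicate 1 lay inside the wt range. Under CPA, ITGA5 was called in no clone. WNT5A, a ligand of non-canonical Wnt signalling, was lower in A3 at -0.38 ± 0.09 (SE, adjusted p = 0.00244). ITGB1 was not called.

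**Figure D2:**
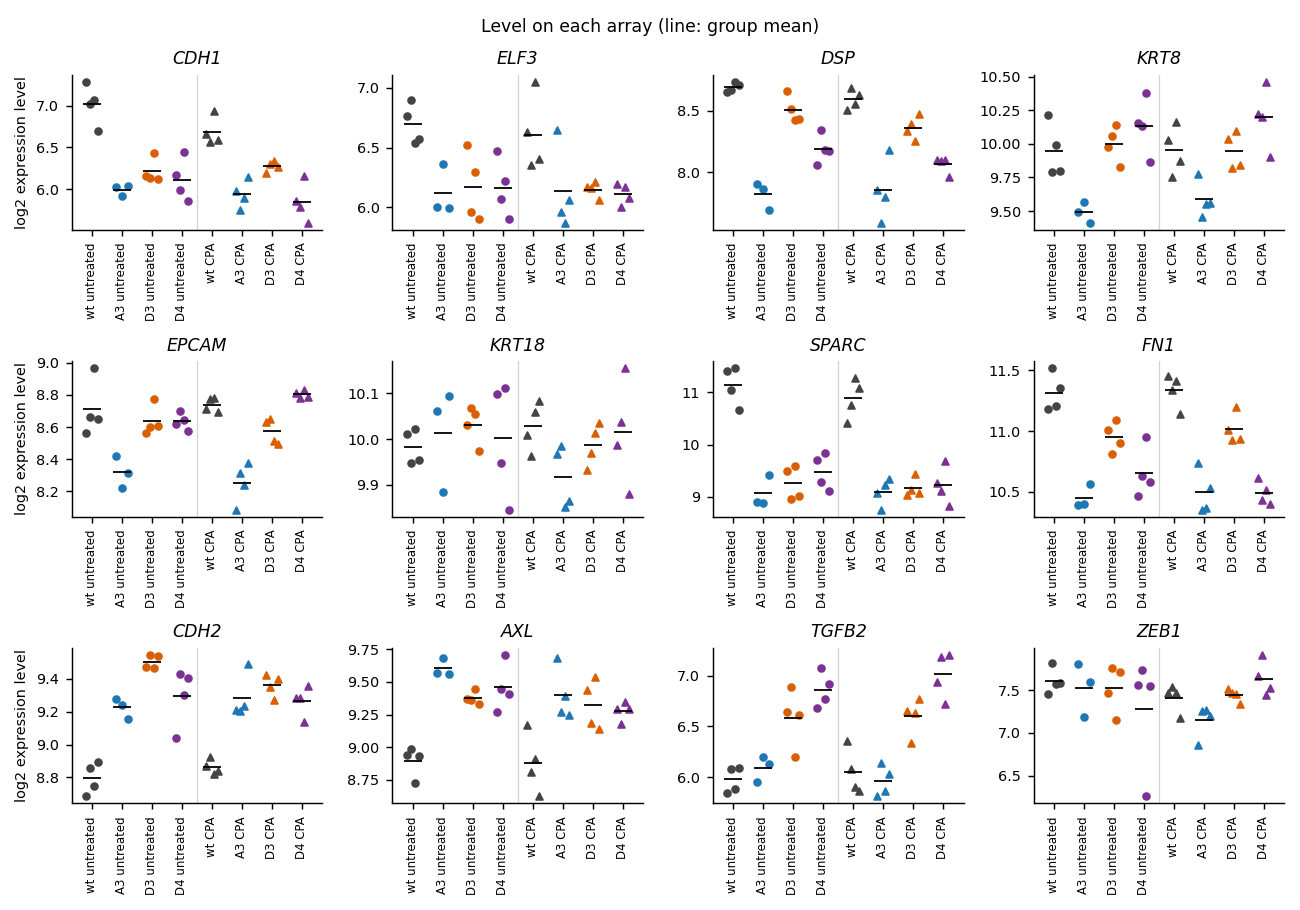
Log2 expression level (vertical axes, each panel with its own range) on each of the 31 arrays for 12 members, with circles for untreated and triangles for CPA-treated tumours and a line at each group mean. The wt arrays stand above the clones for CDH1 and SPARC and below them for CDH2 in both arms, treated D3 overlaps wt for FN1 and AXL, and a single untreated D4 array reads 6.26 for ZEB1.

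Promoter sequence was set beside these levels for the factors named above. ZEB and SNAI proteins bind E-boxes, here CAGGTG or its reverse complement CACCTG, and TEAD factors, which drive CCN1 and CCN2 with YAP, bind GGAATG or its reverse complement CATTCC. The 250 bases before the RefSeq start (assembly GRCh38.p14) were held for 34 of the 54 members, and each motif was searched on both strands. MUC1 alone of the 34 held both motifs. The E-box stood in 8 of 16 epithelial windows (50.0%) and 4 of 18 mesenchymal windows (22.2%), against 17.5% of 27305 windows of all genes. The epithelial members with an E-box were CRB3, RAB25, MUC1, LAMB3, TJP1, DSP, DSG2 and ELF3, of which RAB25, CRB3, TJP1 and DSG2 were called in no clone. The TEAD motif stood in 1 epithelial window (6.25%, MUC1) and in 6 mesenchymal windows (33.3%: CALD1, SPARC, CCN2, TGFB2, ITGA5 and ITGB1), against 11.9% of all windows.

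The windows of 5 called genes with a motif are shown, each 5′ to 3′ on the strand of its gene, with the motif in capitals: an E-box in ELF3, DSP and AXL and a TEAD motif in SPARC and TGFB2.
ELF3, chr1:202010337-202010586, plus strand: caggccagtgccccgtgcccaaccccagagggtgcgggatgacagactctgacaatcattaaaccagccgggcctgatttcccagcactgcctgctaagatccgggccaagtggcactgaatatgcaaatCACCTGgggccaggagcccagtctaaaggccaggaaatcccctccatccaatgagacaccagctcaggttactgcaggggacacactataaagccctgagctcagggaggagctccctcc
DSP, chr6:7541421-7541670, plus strand: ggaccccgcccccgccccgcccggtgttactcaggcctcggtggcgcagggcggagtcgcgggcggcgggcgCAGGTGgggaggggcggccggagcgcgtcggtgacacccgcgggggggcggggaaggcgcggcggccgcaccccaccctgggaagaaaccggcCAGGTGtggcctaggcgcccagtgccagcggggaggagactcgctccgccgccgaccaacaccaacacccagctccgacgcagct
AXL, chr19:41218973-41219222, plus strand: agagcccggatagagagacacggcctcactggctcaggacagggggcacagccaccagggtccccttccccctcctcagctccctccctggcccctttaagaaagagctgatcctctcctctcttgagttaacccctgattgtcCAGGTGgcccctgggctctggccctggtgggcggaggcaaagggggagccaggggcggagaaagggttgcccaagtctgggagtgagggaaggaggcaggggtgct
SPARC, chr5:151686916-151687165, minus strand: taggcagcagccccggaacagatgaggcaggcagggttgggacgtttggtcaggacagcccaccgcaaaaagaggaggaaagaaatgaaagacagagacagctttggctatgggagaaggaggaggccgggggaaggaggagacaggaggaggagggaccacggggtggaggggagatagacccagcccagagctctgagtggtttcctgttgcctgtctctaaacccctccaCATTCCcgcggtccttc
TGFB2, chr1:218345086-218345335, plus strand: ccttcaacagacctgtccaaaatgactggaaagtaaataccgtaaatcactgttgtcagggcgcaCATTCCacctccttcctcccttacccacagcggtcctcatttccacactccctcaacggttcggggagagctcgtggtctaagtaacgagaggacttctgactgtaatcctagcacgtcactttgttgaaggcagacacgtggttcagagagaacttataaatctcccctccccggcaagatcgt
The first base of the motif lies at -120 in ELF3, at -178 and -85 in DSP, at -106 in AXL, at -17 in SPARC and at -185 in TGFB2, counted from the start. Genes that hold the same motif went in different directions: ELF3 was lower and AXL higher in all 3 clones, and SPARC was lower where TGFB2 was higher. A match is a match of letters only, and binding was not measured.

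The clones were then compared with each other, since A3 was passaged like D3 and D4 but is sensitive to CPA. D3 differed from A3 in 4 members, all higher in D3: DSP by 0.69 ± 0.10 (SE, adjusted p = 5.46e-05), 1.61-fold, KRT8 by 0.51 ± 0.13 (SE, adjusted p = 0.0243), EPCAM by 0.32 ± 0.08 (SE, adjusted p = 0.0347) and FN1 by 0.50 ± 0.11 (SE, adjusted p = 0.0102). Of all genes, 1.30% were higher and 0.970% lower in D3. D4 also differed from A3 in 4 members, all higher in D4: TGFB2 by 0.77 ± 0.14 (SE, adjusted p = 0.00123), 1.70-fold, KRT8 by 0.64 ± 0.13 (SE, adjusted p = 0.00257), 1.56-fold, EPCAM by 0.32 ± 0.08 (SE, adjusted p = 0.0255) and DSP by 0.37 ± 0.10 (SE, adjusted p = 0.0262). Of all genes, 1.75% were higher and 2.02% lower in D4. Both comparisons use the same 3 A3 arrays. The A3 values printed above for DSP, KRT8 and EPCAM lay below all D3 and all D4 arrays. TGFB2 exceeded A3 by 0.49 ± 0.14 (SE, adjusted p = 0.0637) in D3, which was not called.

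These counts rested on few arrays. The count for D3 fell from 4 to 2 without A3 replicate 1, A3 replicate 4 or D3 replicate 2, and that for D4 from 4 to 2 without A3 replicate 4 or D4 replicate 2. The count of all genes fell too, from 393 to 236, 168 and 227 for D3 and from 653 to 281 and 491 for D4. Fitting just the D4 and A3 arrays, TGFB2 alone of the members was called, and 67 of all genes. DSP stayed called in D3 and TGFB2 in D4 under every alternative run. Of the other 6 calls, all but KRT8 in D4 were lost without some single array. EPCAM lost its call in 8 of 16 alternatives in D3 and in 5 of 16 in D4. It was lost without A3 replicate 2 both in D3 (adjusted p = 0.172) and in D4 (adjusted p = 0.103). Without A3 replicate 4 it was lost in both too, as it was without D3 replicate 2, 3 or 5 or D4 replicate 2. Fitting just the 2 groups, its adjusted p was 0.157 in D3 and 0.312 in D4. KRT8 in D3 lost it without A3 replicate 1 or 4 or D3 replicate 1, 2 or 3, with adjusted p from 0.0518 to 0.141. FN1 in D3 lost it without A3 replicate 1 (adjusted p = 0.0551), and DSP in D4 without A3 replicate 4 or D4 replicate 2 or 5, with adjusted p from 0.0520 to 0.197. KRT8 in D4 kept its call whichever single array was removed but lost it with the 4 most deviating arrays removed (adjusted p = 0.0675) and in the fit of D4 and A3 alone (adjusted p = 0.0663). Between D4 and D3 limma called 0 members, where 0.0924% of all genes were higher and 0.231% lower in D4. At an unadjusted p under 0.05, 8 of the 54 differed between D4 and D3, a looser threshold than that of the shares just given. The share of all genes at that looser threshold is not given here. The smallest adjusted p of a member was 0.163.

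Treated tumours gave a second set of clone and wt arrays. In A3 against wt, 17 members had been called in untreated tumours, all 17 had the same sign in treated ones, and 14 were called in both. In D3, 10 of 12 were called in both, and in D4 12 of 17, with 16 of the 17 of the same sign. The exception was CALD1, -0.38 in untreated and 0.01 in treated D4 tumours. No member was called in opposite directions. A like count was not made for all genes, so this repeat cannot be called particular to the members. Treated A3 had 1 epithelial member higher and 7 lower and 6 mesenchymal members higher and 4 lower, against 6.74% of all genes higher and 9.60% lower. Treated D3 had 0 and 3 epithelial and 5 and 2 mesenchymal, against 6.28% and 10.1%, and treated D4 had 1 and 5 and 6 and 2, against 7.54% and 7.59%.

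Treated A3 lay below wt in DSP at -0.74 ± 0.09 (SE, adjusted p = 5.74e-07), 1.67-fold, in EPCAM at -0.49 ± 0.08 (SE, adjusted p = 3.27e-05), in FN1 at -0.84 ± 0.10 (SE, adjusted p = 6.81e-07), 1.79-fold, and in CLDN1, a claudin, at -0.46 ± 0.10 (SE, adjusted p = 0.00218). Also called in treated but not in untreated A3 were TGFBR2, a receptor of TGF-beta, higher by 0.29 ± 0.08 (SE, adjusted p = 0.0101), ST14, higher by 0.22 ± 0.08 (SE, adjusted p = 0.0459), and CALD1, which was -0.41 ± 0.13 (SE, adjusted p = 0.0299). The ST14 call was lost in 8 of 16 alternatives. TNC was higher in treated A3 by 0.47 ± 0.08 (SE, adjusted p = 8.99e-05) and CDH2 by 0.42 ± 0.08 (SE, adjusted p = 0.000268). In treated D3, MUC1 was lower at -0.30 ± 0.08 (SE, adjusted p = 0.0072) and ELF3 at -0.46 ± 0.16 (SE, adjusted p = 0.0399), and CDH2 was higher by 0.50 ± 0.08 (SE, adjusted p = 4.27e-05), TNC by 0.42 ± 0.08 (SE, adjusted p = 0.000387) and CCN1 by 0.64 ± 0.12 (SE, adjusted p = 0.000524). In treated D4, FN1 was lower at -0.84 ± 0.10 (SE, adjusted p = 7.43e-07), 1.79-fold, DSP at -0.53 ± 0.09 (SE, adjusted p = 8.36e-05), MUC1 at -0.29 ± 0.08 (SE, adjusted p = 0.00805) and ELF3 at -0.50 ± 0.16 (SE, adjusted p = 0.0275), and CCN1 was higher by 0.72 ± 0.12 (SE, adjusted p = 0.000104), 1.65-fold. Without wt replicate 3 the count in treated A3 fell from 18 to 11. The ELF3 call in treated D3 was lost without any 1 of the 4 D3 arrays or without wt replicate 1 or 3, and that in treated D4 without wt replicate 1 or 3 or D4 replicate 2 or 5.

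**Figure D3:**
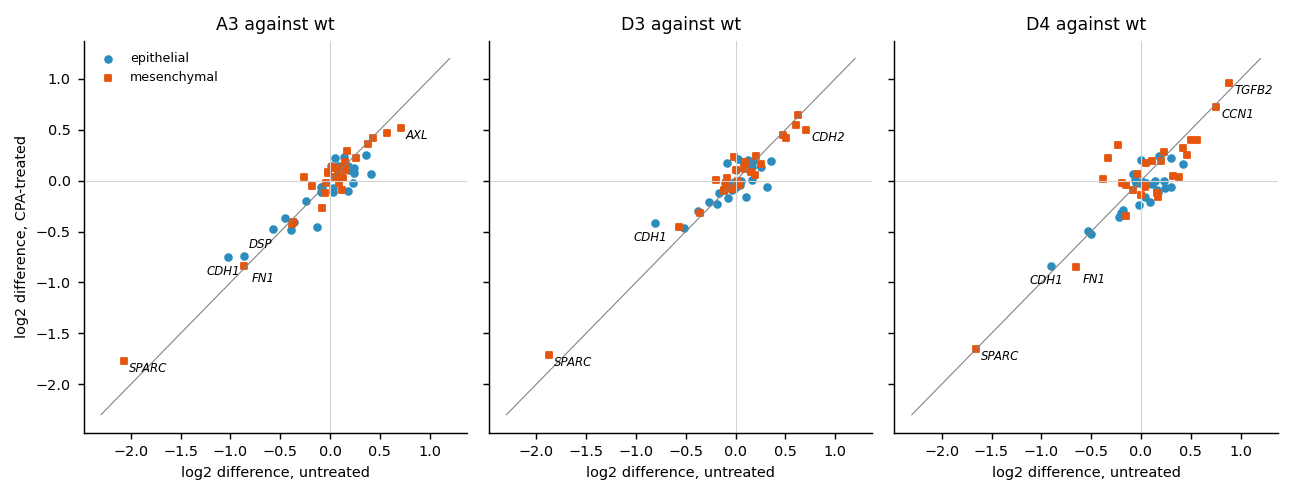
Log2 difference from wt in untreated (horizontal) against CPA-treated tumours (vertical) for the 54 members, 1 panel per clone, with the line of equal values. SPARC and CDH1 lie at the lower left in every panel, AXL, CDH2 and TGFB2 are labelled at the upper right of A3, D3 and D4, and no array enters both axes.

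The remaining question was what CPA did to these genes within a line. In none of the 4 lines did limma call a member between treated and untreated tumours, while of all genes 0.0462% were called in wt. In the clones 0.352% of genes were called for A3, 0.231% for D3 and 1.03% for D4. At an unadjusted p under 0.05 there were 2 of 54 members for wt, 4 for A3, 5 for D3 and 12 for D4, which is 3.70%, 7.41%, 9.26% and 22.2% of them, near the 3.38%, 6.68%, 12.8% and 21.9% of all genes. The 54 had a median difference of -0.02 for wt, -0.03 for A3, -0.05 for D3 and -0.11 for D4. The largest absolute differences were 0.38, 0.38, 0.46 and 0.41 in the same order. The effect of CPA differed from that in wt for 0 of the 54 in A3, D3 and D4, and 0% of all genes were called in each. At an unadjusted p under 0.05 there were 3, 2 and 6 members. The share of all genes at that looser threshold is not given here, so these counts are not to be set against the 0%.

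Single genes can be read in the same way. Treated minus untreated, CDH1 was -0.33 ± 0.12 (SE, adjusted p = 1.0) for wt, with a 95% interval from -0.58 to -0.07, -0.05 for A3, 0.06 for D3 and -0.26 for D4. ZEB2 showed the largest absolute difference in D3, -0.46 ± 0.15 (SE, adjusted p = 0.263). In D4 the lowest values were KRT19 with -0.41 ± 0.12 (SE, adjusted p = 0.0725) and ITGA5 with -0.40 ± 0.17 (SE, adjusted p = 0.163), and the smallest adjusted p was that of MYL9, a myosin light chain, with -0.34 ± 0.09 (SE, adjusted p = 0.0639). Without D4 control replicate 2, limma called 4 members lower in treated D4: CCN2 (-0.38), FOXC2 (-0.42), MYL9 (-0.40) and TGFBI (-0.41). Of all 17314 genes 787 were then called, against 178 with all arrays. KRT19 was called without D4 control replicate 5 (-0.52) or without D4 CPA replicate 4 (-0.48), where 366 and 247 of all genes were called.

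**Figure D4:**
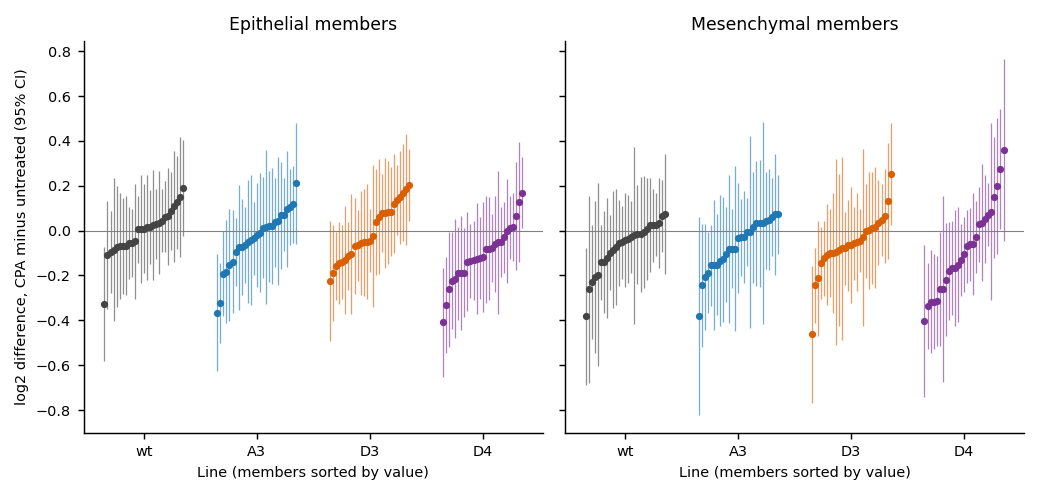
Log2 difference between CPA-treated and untreated tumours (vertical axis) of each member within each line, sorted by value, with 95% confidence intervals, epithelial members left and mesenchymal members right. Values lie between -0.46 and 0.36, and 12 members of D4 have an unadjusted p under 0.05.

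Each array can be summed up by the mean over the 27 genes of a side after subtracting each gene's mean over all arrays. In untreated tumours the epithelial mean was 0.04 ± 0.08 for wt (SD, n = 4), -0.02 ± 0.05 for A3 (n = 3), 0.02 ± 0.06 for D3 and 0.03 ± 0.08 for D4. The mesenchymal mean was 0.02 ± 0.05, -0.01 ± 0.004, 0.05 ± 0.04 and 0.08 ± 0.04 in the same order. Every untreated clone overlapped wt on both sides. Under CPA the epithelial means were 0.04 ± 0.06 for wt, -0.06 ± 0.04 for A3, 0.01 ± 0.008 for D3 and -0.07 ± 0.05 for D4 (SD, n = 4), and the ranges of A3, D3 and D4 each overlapped that of wt. The mesenchymal means under CPA were -0.05 for wt, -0.07 for A3, and -0.01 for both D3 and D4.

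**Figure D5:**
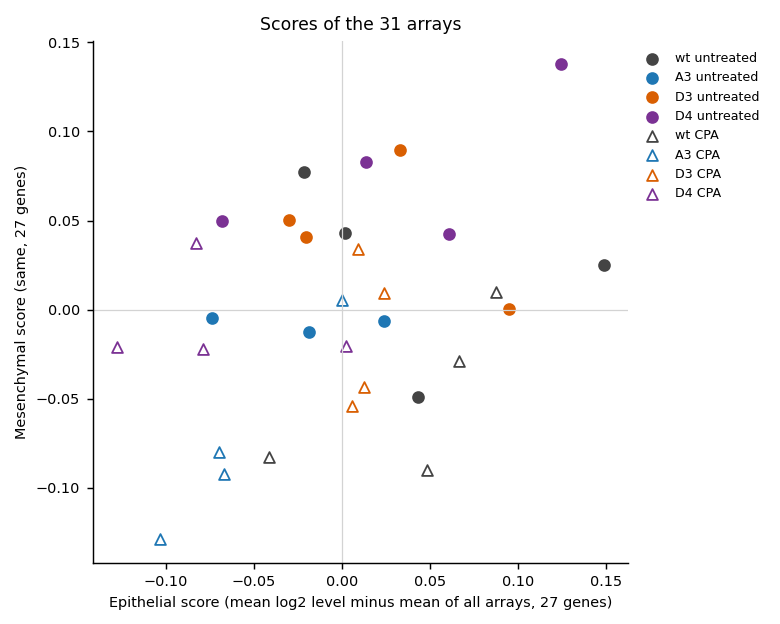
Epithelial (horizontal) and mesenchymal (vertical) mean of each array in log2 units, each gene taken relative to its mean over all arrays, with filled circles for untreated and open triangles for treated tumours. The arrays lie within 0.15 of 0 on both axes and the lines are intermixed.

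Further genes of the same pathways were taken as lists. Of 27 measured genes of epithelial junctions and splicing, 1 was higher and 4 lower in A3, 3 and 2 in D3, and 2 and 3 in D4, against wt in untreated tumours. These counts and those of the next lists are to be read against the shares of all genes higher and lower, 10.1% and 8.36% in A3, 9.69% and 8.40% in D3, and 9.22% and 10.9% in D4. PATJ, a polarity scaffold, was lower in all 3, at -0.68, -0.49 and -0.52, and ITGB4, the hemidesmosome integrin, at -0.98, -0.69 and -0.72. CDH3 (P-cadherin) was 0.58 ± 0.10 (SE, adjusted p = 4.35e-05) higher in D4 and GRHL1, a grainyhead factor, was lower in A3, -0.57 ± 0.10 (SE, adjusted p = 5.58e-05). Of 38 genes of the mesenchymal state and TGF-beta response, 5 were higher and 4 lower in A3, 6 and 4 in D3, and 5 and 5 in D4. LOX, which crosslinks collagen, was lower at -1.39, -1.07 and -1.19, SKIL, a SMAD co-repressor, at -1.004, -0.92 and -0.93, and NT5E (CD73) at -0.86, -0.76 and -0.38. SMAD3, a signal transducer of TGF-beta, was higher by 0.46, 0.27 and 0.30. In tumours given CPA, set against untreated ones, no gene of either list was called in any line.

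Xenografts hold host cells, a human array can bind mouse RNA, and fibroblasts express SPARC, FN1, TNC and CALD1. Of 13 measured fibroblast and pericyte markers, 1 was higher and 2 lower in A3, 2 and 1 in D3, and 1 and 1 in D4. COL3A1 was lower in all 3 clones, at -1.01, -0.61 and -0.77, and LUM in A3 at -0.49, while COL6A3 was higher by 0.42, 0.59 and 0.45 and COL1A1 in D3 by 0.43. The mean level of the 13 ranged from 6.31 to 6.38 over the untreated wt arrays, 6.21 to 6.37 in A3, 6.36 to 6.47 in D3 and 6.27 to 6.41 in D4. Of 10 endothelial markers 0 were higher and 2 lower in A3, 0 and 1 in D3, and 1 and 1 in D4. KDR was lower in all 3 clones, at -1.19, -1.01 and -1.74, with list means of 6.19 to 6.28 over untreated groups. In the untreated clones, of 8 macrophage and leukocyte markers, CD68 was higher in A3 (0.42) and D4 (0.30) and LYZ lower in D4 (-0.60), and the list averaged 5.48 to 5.55. None of the skin, muscle or fat markers was called in an untreated clone, and 5 skin markers averaged 5.20 to 5.31 and the 8 muscle and fat markers 5.59 to 5.64. The part of host RNA in the differences of SPARC, FN1, TNC and CALD1 was not tested.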

How the data were processed

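Trizol-extracted total RNA of PC3 xenografts was biotin-labelled and read on Affymetrix arrays, per the labels' protocols. The deposited values were log2 levels of 23989 probe sets on 31 arrays, which the authors made with RMA according to the submitters' processing notes. This method brings the arrays towards a common distribution, so a shift shared by most genes would be largely hidden. Array medians were 6.59 to 6.73 and arrays of a group correlated at 0.985 to 0.997. The RMA version was not given in the sources used here. Of 32 planned arrays, 1 of untreated A3 had been left out by the submitters and was not analysed here.

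Probe sets with 1 symbol in the platform annotation (17624) were kept, 411 carried several and 5954 none. Groups were compared with limma 3.58.1 in R 4.3.3 (lmFit, eBayes), with all 31 arrays and 8 group means fitted together, 23 residual degrees of freedom and a median residual SD of 0.148. P-values were adjusted by Benjamini-Hochberg over 17314 genes. Precision is limited by the number of arrays. The model was tested on simulated data.

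The members, lists and tests were chosen with earlier results of these data known. Given by array were 11 members named in the rule and the 5 of each side with the largest range of untreated group means. In each comparison the text names called members with an absolute log2 difference of at least 1 and the 4 of each side with the smallest p, and other members by counts, with some called members added. Genes of the other lists were chosen from the called ones of smallest p, with some added because they were called in all clones. Alternatives were array weights, fitting just the 2 groups of a comparison, a block for the replicate number, a variance trend, further quantile normalization, centring on array medians, no dimmest 30% of genes, the probe set of largest SD, and each array left out in turn. Leaving out the 4 arrays farthest from their group means and a block for the replicate number within each line were added after seeing the data. Promoter windows came from RefSeq.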

Additional observations from a re-analysis of the deposited data

Results flagged for a closer look

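Among 161 tests of whether the highest or lowest of the 4 arrays in a group stands far from the others, for the 21 members given by array and both means, 7 passed the critical value of 0.829, where chance gives about 1 in 20. ZEB1 read 6.26 on untreated D4 replicate 4, with the other 3 arrays at 7.55 to 7.74. ZEB2 read 5.73 on CPA-treated D4 replicate 4, with the others at 6.45 to 6.56, and without that array treated D4 exceeded treated wt in ZEB2 by 0.55 ± 0.13 (SE, adjusted p = 0.00453 in limma), which with all arrays was 0.36 and not called (adjusted p = 0.116). CDH1 read 6.43 on untreated D3 replicate 3, with the others at 6.12 to 6.16, and without it D3 differed from wt by -0.88 ± 0.13 (SE). DSP read 7.96 on CPA-treated D4 replicate 5, against 8.09 to 8.10. CDH2 read 9.49 on CPA-treated A3 replicate 4, against 9.21 to 9.23. TNC read 10.46 on untreated D3 replicate 2, against 10.42 on each of the others. The mesenchymal mean was 0.0374 on CPA-treated D4 replicate 1, against -0.02 on each of the others. Leaving out the far array changed no other call of these genes.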

How the results depend on the processing

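Of all 96 calls of members, 57 kept their call under every alternative and 39 lost it under at least 1, and none changed direction. By comparison, the calls kept throughout were 9 of 17 for A3 against wt, 9 of 12 for D3, 10 of 17 for D4, 1 of 4 each for D3 and D4 against A3, and in treated tumours 10 of 18, 7 of 10 and 10 of 14. The count of members called for A3 against wt in untreated tumours went from 17 to 11 with only the groups compared, and that for D3 against A3 from 4 to 9 with array weights. The count of all genes called moved likewise, from 3200 to 1882 and from 393 to 1207. For D4 against A3 the count of 4 became 1 with only the groups compared, 9 with array weights and 2 without the 4 farthest arrays. There the count of all genes went from 653 to 67, 1644 and 460. For CPA in D4 the count of 0 became 1 with further quantile normalization (LAMB3) and 1 without the dimmest 30% of genes (MYL9). All genes called there were 195 of 17314 and 264 of 12120, against 178 in the main fit. The cause was not tested. With 1 array left out, counts ranged from 12 to 15 for A3 against wt, 9 to 13 for D3 and 14 to 18 for D4, and in treated tumours from 11 to 16 (18 with all arrays), 7 to 11 and 11 to 16. They ranged from 2 to 3 for D3 against A3, 2 to 5 for D4 against A3, 0 to 4 for CPA in D4 and 0 to 0 elsewhere.

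Same-numbered arrays of other groups correlated in their deviations at a median of 0.053 over 84 pairs, against -0.013 for 336 pairs of other numbers, so the numbers were not taken as pairs. Between the arms of D4 the 4 correlations were -0.11, 0.24, 0.39 and 0.34, and 3 of the 4 arrays correlated best with their own number, which is a hint from the data and not from the design. In wt 2 of 3 arrays with a number in both arms did so, in A3 1 of 3 and in D3 0 of 3. A replicate block within each line was added after seeing the data. It used only numbers present in both arms, 3 pairs each in wt, A3 and D3 and 4 in D4. With it limma called 0 members for CPA in wt, A3, D3 and D4, and 0, 17, 18 and 105 of 17314 genes. At an unadjusted p under 0.05 there were 4, 3, 6 and 12 members, and the share of all genes at that threshold is not given here. CDH1 in D4 was at -0.26 ± 0.08 (SE, adjusted p = 0.104). With the replicate number as a block over all groups, CPA in D4 had 1 called member (KRT19, -0.41), EPCAM lost its call for D3 against A3 (adjusted p = 0.0503), and 16, 13 and 15 members were called for A3, D3 and D4 against wt. Probe brightness limits the 6 dim members, and 3 arrays limit untreated A3.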

Other observations

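In D4 the order of the arrays by replicate number was alike in both arms for some members, chosen here after their values were seen. KRT8 read 10.16, 10.13, 10.38 and 9.86 on untreated D4 replicates 1, 2, 4 and 5 and 10.22, 10.20, 10.46 and 9.90 on the treated ones. SPARC read 9.70, 9.28, 9.85 and 9.11 on the untreated and 9.26, 9.12, 9.68 and 8.84 on the treated replicates. CDH1 read 6.16, 5.98, 6.45 and 5.85 on the untreated and 5.86, 5.79, 6.16 and 5.60 on the treated replicates. Replicate 4 was highest and replicate 5 lowest in each of these 6 sets. CDH1 and SPARC were lower on the treated than on the untreated array of the same number for all 4 numbers. Whether arrays with 1 number share an animal, a day or a batch is not given in the sources used here.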
